A study of Mus musculus with 21 samples.

Results

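The colony-stimulating factors and their receptors were followed through 21 RNA-seq libraries of mouse peritoneal CD11b+ cells. The 8 genes were Csf1, Csf2 and Csf3, which encode the ligands M-CSF, GM-CSF and G-CSF, and the receptor genes Csf1r, Csf2ra, Csf2rb, Csf2rb2 and Csf3r. They were taken by gene symbol from the deposited table of TPM (the share of a transcript in its library, corrected for its length), 38 of their transcripts were summed per gene, and they are 8 of 23569 genes in all. Cells came from lavage of unelicited C57BL/6 mice, were selected on CD11b with a kit and were plated overnight in medium with charcoal-stripped serum, before the medium was changed to a serum-free one.

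The groups crossed genotype, added protein and stimulus, with 1 library in each of 21 combinations. Of these, 6 libraries were labelled Lum-/- (lacking lumican), 6 were labelled Bgn-/- (lacking biglycan; the protocol gives these animals as Bgn-/0 or -/-) and 9 were wild type. The stimuli were LPS, a bacterial lipopolysaccharide sensed by TLR4, at 100 ng/mL for 6 h, CpG, a DNA ligand of TLR9, at 1 µM for 6 h, and none, with 7 libraries each. Recombinant lumican or biglycan, both proteoglycans of the matrix, was added at 10 µg/mL for 1 h before the stimulus. Lumican was given to cells labelled Lum-/- and to wild-type cells, and biglycan to cells labelled Bgn-/- and to wild-type cells. For protein without a stimulus the labels state neither dose nor time. The protocol gives n = 10 mice and does not link wells to animals, so p-values measure the spread between these libraries, and genotype and cell preparation cannot be told apart.

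Each ligand acts through its own receptor. M-CSF binds the receptor tyrosine kinase encoded by Csf1r, on which most tissue macrophages depend for survival. GM-CSF binds the alpha chain encoded by Csf2ra together with the common beta chain encoded by Csf2rb, and signals through JAK2 and STAT5. Csf2rb2 encodes the second beta chain of the mouse, which serves interleukin 3 alone, and Csf3r encodes the G-CSF receptor, known best from neutrophils and also carried by macrophages. Resident macrophages are known to make little GM-CSF or G-CSF until they meet a microbial product, and the mRNAs of these cytokines are known to be short-lived because of AU-rich repeats in their 3′ untranslated regions, to which tristetraprolin and related proteins bind.

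Csf2 and Csf3 held the most of these repeats among the 8 genes, and the densest stretch of each ligand gene is shown because the ligands are the members to which the repeats are known to matter. Capitals mark the pentamer ATTTA, counted on the transcript strand with overlaps between repeats allowed, in the 3′ untranslated region of the main transcript in GENCODE vM21 (GRCm38).
Csf2, chr11:54247320-54247349, minus strand: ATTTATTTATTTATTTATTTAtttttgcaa
Csf3, chr11:98702992-98703021, plus strand: ATTTAtctctATTTAatATTTAtgcatatt
Csf1, chr3:107741096-107741125, minus strand: ATTTAaatatctATTTAaaaaataggaagc
The 317-base region of Csf2 held 9 ATTTA pentamers and 5 copies of the nonamer ATTTATTTA, and as many pentamers were present in 0.0552% of 1813 regions of like length. The 669-base region of Csf3 held 6 pentamers, a number reached in 1.49% of 2219 regions of like length, and no nonamer. The 2111-base region of Csf1 held 4, and 46.4% of regions of like length held as many. For its length Csf1 held fewer than the receptor gene Csf1r, at 1.89 per kb in Csf1 and 3.06 per kb in Csf1r. Csf1r had 2 pentamers in 654 bases, as many as 30% of 2201 regions of like length held, and the regions of Csf2ra, Csf2rb, Csf2rb2 and Csf3r had 0. The nonamer was present in 4.82% of 19015 untranslated regions. These are matches of letters and say nothing of the half-life of any of the mRNAs in these cells.

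Several libraries stood apart, and results that rest on them are given with and without them. The biglycan-alone library labelled Bgn-/- and the untreated one labelled Lum-/- had 40231 and 40241 transcripts above 0, against 50990 to 59621 in the others, and they differed from each other by less than the sampling noise estimated from the steps in their low values (a ratio of 0.195, against at least 2.00 in every other pair of libraries). They behaved as 1 library under different labels, and Arg1 stood at 601 and 688 TPM in them and at no more than 67.2 TPM elsewhere. The untreated wild-type library had 1.03 TPM of the mast cell protease Cma1, against at least 20.5 TPM in the other wild-type libraries. The targeted genes went against the genotype labels. Lum was at 0.823 to 14.1 TPM in the libraries labelled Lum-/-, against 0 to 1.40 TPM in wild-type libraries, and Bgn at 0 to 3.49 TPM in those labelled Bgn-/-, against 0.327 to 1.52 TPM in wild type. Each label was low in the other gene, apart from the 2 libraries that behaved as 1. Bgn was at 0 to 0.263 TPM in the libraries labelled Lum-/- (1.72 TPM in the untreated one). Lum was at 0 to 0.134 TPM in those labelled Bgn-/- (1.10 TPM in the biglycan-alone one). Whether labels were exchanged was not tested. The macrophage genes Adgre1 (542 to 949 TPM) and Itgam (287 to 644 TPM, encoding CD11b) were high in all 21 libraries, and the summed eosinophil, mesothelial and fibroblast markers reached at most 1.23 TPM. Of 8 neutrophil markers, Ly6g, Elane, Mpo, Ngp, S100a9 and Ltf reached at most 0.302, 0.0997, 0.256, 0.182, 0.589 and 0.879 TPM, while Camp stood at 0.952 to 12.1 TPM and S100a8 at 106 to 387 TPM. B cell markers summed to 86.5 to 275 TPM. Since these are bulk samples, fewer cells of a type and less RNA per cell cannot be told apart.

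Without a stimulus the cells carried receptor mRNA, far less Csf1 mRNA and almost no Csf2 or Csf3 mRNA. By median TPM over the 7 unstimulated libraries the order was Csf1r (1118), Csf2ra (554), Csf2rb (358), Csf3r (245), Csf2rb2 (239), Csf1 (9.21), Csf3 (0.893) and Csf2 (0.140). The range of Csf2rb2 lay within that of Csf3r, so these neighbours in the order did not differ beyond their spread. The ranges of Csf3r and Csf2rb overlapped, as did those of Csf3 and Csf2. Library by library, however, Csf2rb lay above Csf3r and Csf3 above Csf2 in all 7. Csf1r lay above every other member in all 7 libraries. With LPS the order by median was Csf3 (544 TPM), Csf2ra (464), Csf3r (261), Csf2rb (196), Csf1r (192), Csf2 (189), Csf2rb2 (81.3) and Csf1 (35.2). The ranges of Csf3 and Csf2ra overlapped, as did those of Csf2rb, Csf1r and Csf2, and Csf3r overlapped with Csf1r and Csf2. Their places in that order did not differ beyond their spread. The plot of member levels shows every library.

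**Figure D1:**
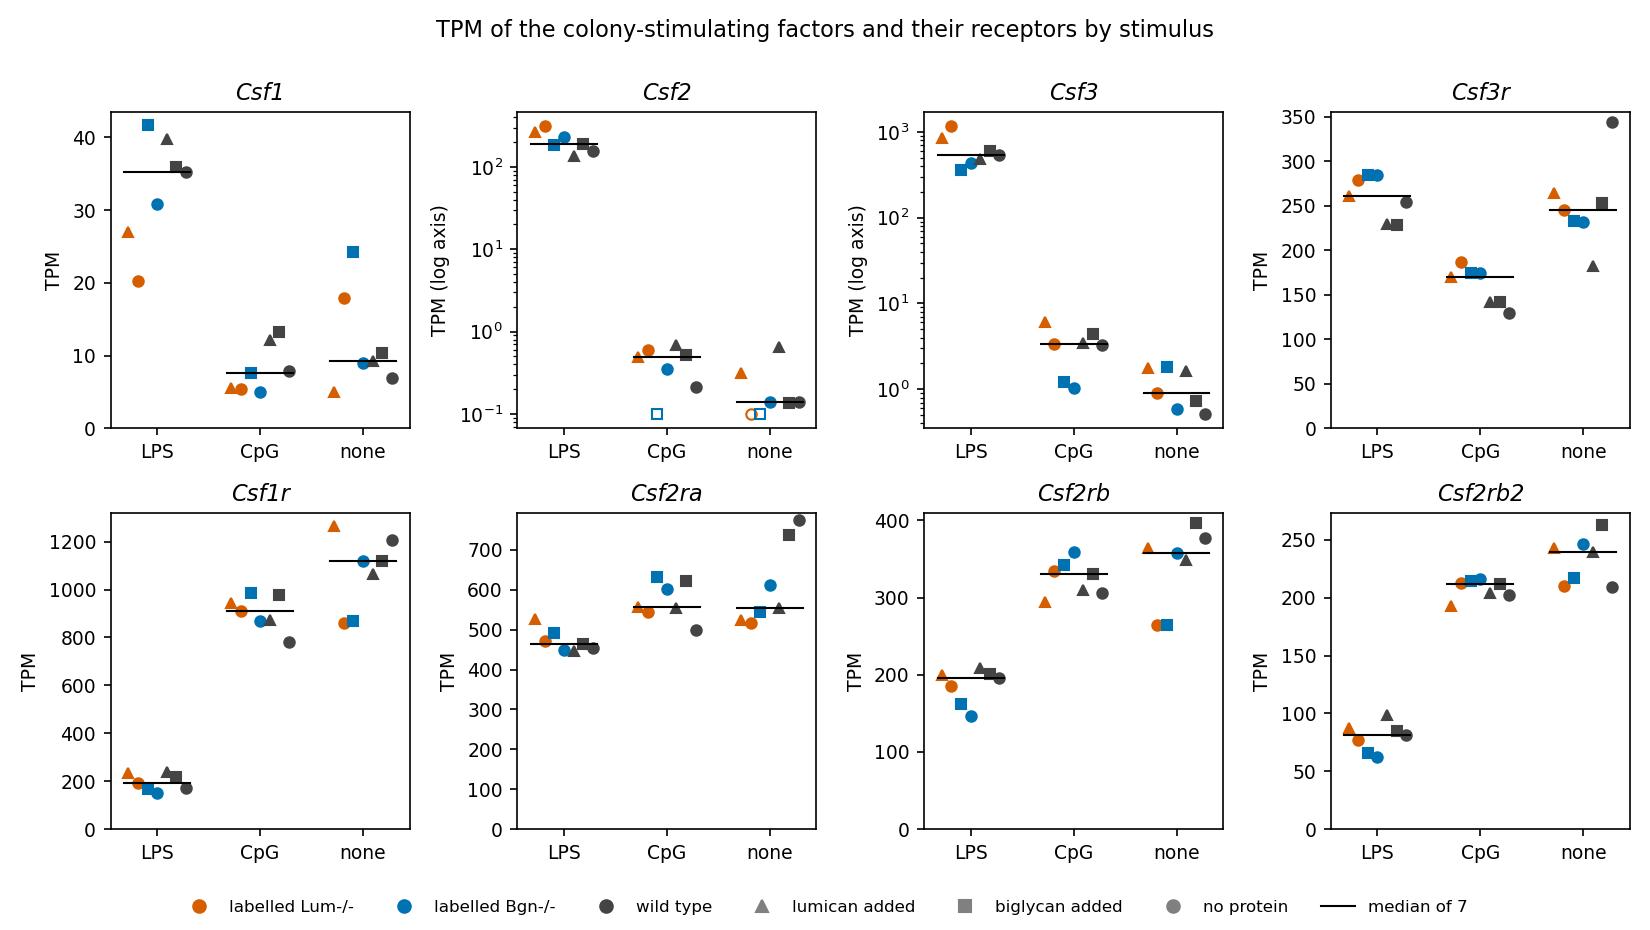
TPM of the 8 genes in the 21 libraries by stimulus, with a log axis for Csf2 and Csf3 and a linear axis from 0 for the others; colour gives the genotype label, shape the added protein, the line the median of 7 libraries, and open symbols at the foot of the Csf2 panel the 3 libraries listed at 0. All 7 LPS libraries lie far above the rest for Csf2 and Csf3 and far below the rest for Csf1r.

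All 3 ligand genes were higher with LPS. Csf3, the gene of the main growth factor for neutrophils, ran from 358 through a median of 544 to 1156 TPM with LPS, against 0.517, 0.893 and 1.81 TPM with no stimulus. The groups were far apart, and the lowest LPS library was the one labelled Bgn-/- with biglycan. The median with LPS was 610 times that with no stimulus, and the difference was 8.15 ± 0.22 (SE) on the log2(TPM + 1) scale (limma, adjusted p = 5.37e-14).

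Csf2, the gene of the cytokine that activates and expands myeloid cells, ran from 134 through 189 to 310 TPM with LPS. With no stimulus it was listed at 0 in the 2 libraries that behaved as 1, for which the steps in the low values gave a rough depth of 2330000 and 2430000 reads, against 13000000 to 21100000 in the others, and it reached 0.656 TPM at most, so no fold is given. The difference was 7.43 ± 0.16 on the log2(TPM + 1) scale (limma, adjusted p = 8.52e-15), and this size rests on the pseudocount, being 9.74 with 0.1 TPM added and 5.32 with 5 TPM added.

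Csf1, the gene of the macrophage growth factor, changed far less. It ran from 20.2 through 35.2 to 41.6 TPM with LPS, against 5.02, 9.21 and 24.3 TPM with no stimulus. The groups overlapped only at the highest unstimulated library. The 2 libraries that behaved as 1 gave 24.3 and 17.9 TPM, and the other 5 unstimulated libraries lay between 5.02 and 10.4 TPM. The rise was 1.53 ± 0.24 on the log2 scale (limma, adjusted p = 1.71e-05), and 1.93 ± 0.16 (adjusted p = 1.05e-07) without those 2 and the untreated wild-type library.

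These comparisons were made against a background in which most genes moved. LPS and no stimulus differed at an adjusted p below 0.05 in 86.4% of 11773 genes, 14.1% higher and 72.3% lower with LPS, and the median gene fell by 0.72 on the log2 scale, which a scaling to the median ratio of each library brought to 0.02. Of the 8 members, 3 were higher and 4 lower, so that the share of higher ones lay above that of all genes and the share of lower ones below it; neither difference was tested. Relative to the median gene Csf3 was higher by 8.88, Csf2 by 8.15 and Csf1 by 2.25, and the Csf1 difference ranked at the 96.3 percentile of all genes. All LPS libraries lay above all unstimulated ones in 8.60% of genes and below them in 58.1%.

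Csf1r was the receptor gene that fell most with LPS. It ran from 151 through 192 to 238 TPM with LPS, against 861, 1118 and 1264 TPM with no stimulus. No library of either group came near the other, and the ratio of the medians was 0.172. The fall was 2.45 ± 0.10 on the log2 scale (limma, adjusted p = 1.41e-12), and with the scaling it was 1.61 ± 0.09 (adjusted p = 2.03e-10). The 7 macrophage markers, Csf1r among them, summed to 11500 to 15286 TPM with LPS, against 29709 to 43626 TPM with no stimulus, most of it Lyz2. The part of this in the Csf1r result was not tested.

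The beta chain genes were lower with LPS, Csf2rb2 more so than Csf2rb. Csf2rb2 ran from 62.4 through 81.3 to 98.2 TPM with LPS, against 209, 239 and 263 TPM with no stimulus, a difference of -1.55 ± 0.08 as deposited (limma, adjusted p = 3.23e-11) and of -0.71 ± 0.08 with the scaling (adjusted p = 4.29e-07). Csf2rb ran from 147 through 196 to 209 TPM with LPS, against 264, 358 and 397 TPM with no stimulus. The groups of both genes stayed apart. For Csf2rb the difference was -0.86 ± 0.10 as deposited (limma, adjusted p = 3.28e-07), close to the median gene, and with the scaling it was -0.02 ± 0.09 (adjusted p = 0.864).

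The beta chain genes are close copies on chromosome 15, and a stretch of their coding sequence is shown because reads from shared stretches can be split between them. Capitals mark the positions at which the copies differ.
Csf2rb, chr15:78338897-78338986, plus strand: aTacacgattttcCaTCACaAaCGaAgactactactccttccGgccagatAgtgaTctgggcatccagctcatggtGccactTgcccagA
Csf2rb2, chr15:78294345-78294434, minus strand: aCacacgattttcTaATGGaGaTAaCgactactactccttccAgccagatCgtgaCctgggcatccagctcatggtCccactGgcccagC
Both are GRCm38 coordinates of GENCODE vM21, and the 90 bases hold 16 differences. Over 2631 aligned coding bases the copies were identical at 95.21%, and 28.92% of the 31-base words of the main Csf2rb transcript were also in that of Csf2rb2. The genes lie 20031 bases apart on opposite strands, Csf2rb2 at chr15:78282507-78305721 and Csf2rb at chr15:78325752-78353847. The split of shared reads between them is a limit on both levels.

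The direction for Csf2ra, the alpha chain of the GM-CSF receptor, depended on the processing. Csf2ra ran from 446 through 464 to 527 TPM with LPS, against 516, 554 and 776 TPM with no stimulus, and the groups overlapped. As deposited it was lower by 0.35 ± 0.09 on the log2 scale (limma, adjusted p = 0.00152). With the scaling the sign turned to 0.49 ± 0.09 (adjusted p = 0.000125), and the Csf2ra-201 transcript alone gave -0.16 (adjusted p = 0.0946).

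Csf3r, as deposited, was not called with LPS. It ran from 228 through 261 to 285 TPM with LPS, against 182, 245 and 345 TPM with no stimulus. The unstimulated libraries enclosed the LPS ones, both extremes being wild type. The difference was 0.07 ± 0.10 as deposited (limma, adjusted p = 0.512), 0.18 ± 0.07 without the untreated wild-type library (adjusted p = 0.0253) and 0.91 ± 0.10 with the scaling (adjusted p = 2.65e-07). The 8 neutrophil markers summed to 318 to 398 TPM with LPS, against 108 to 162 TPM with no stimulus. S100a8 made up nearly all of it, at 308 to 387 TPM with LPS, against 106 to 158 TPM with no stimulus. Camp, the gene of an antimicrobial peptide, stood at 8.88 to 12.1 TPM with LPS, against 0.952 to 4.68 TPM with no stimulus. The part of these markers in the Csf3r values was not tested.

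**Figure D2:**
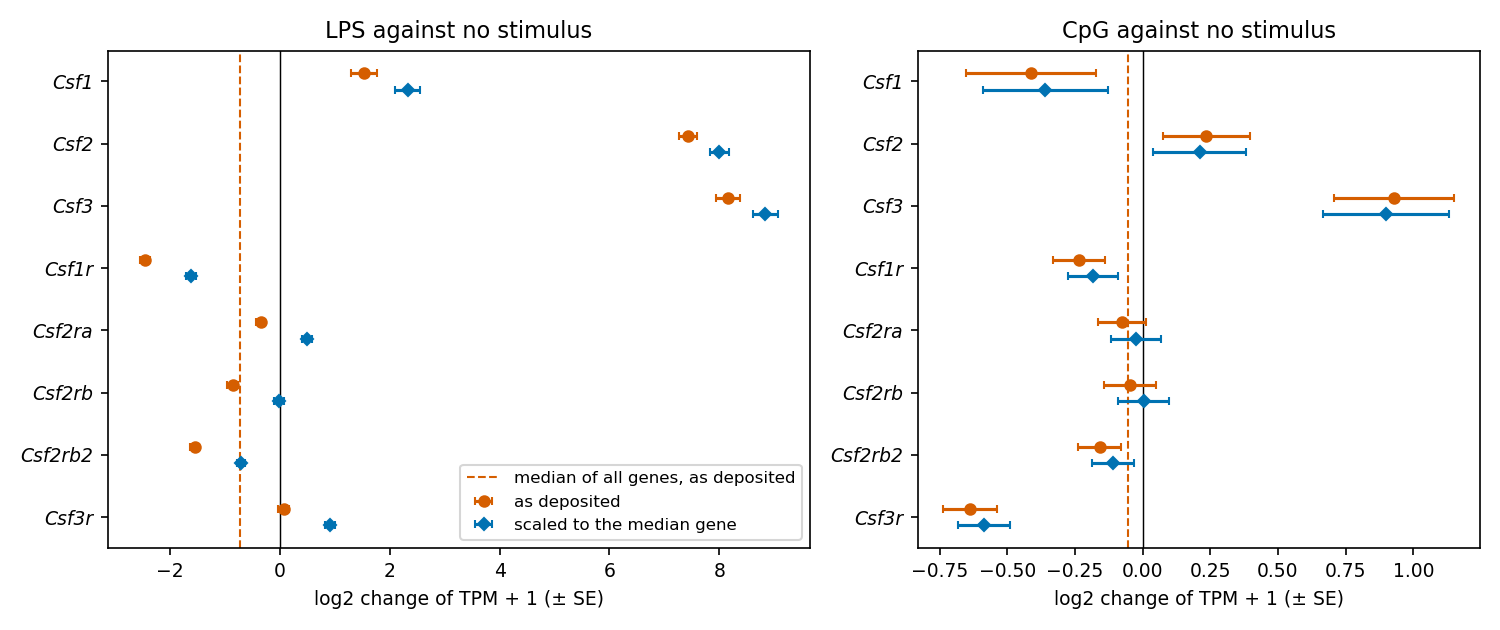
Differences of the 8 genes on the log2(TPM + 1) scale (± SE) for LPS and for CpG against no stimulus, as deposited (circles) and scaled to the median gene (diamonds); the dashed line is the median of all genes as deposited. The LPS differences of Csf2, Csf3 and Csf1 lie right of 0 and those of Csf1r and Csf2rb2 left of it on both scales, while Csf2ra changes side and Csf2rb moves to 0.

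Pair by pair, within each of the 7 settings of genotype and protein, Csf1, Csf2 and Csf3 were higher with LPS and Csf1r, Csf2rb and Csf2rb2 lower in 7 of 7 pairs. The exact sign-flip permutation test (two-sided, not adjusted, 1 of 24 such tests on all libraries) gave p = 0.0156 for each of them, the smallest that 7 pairs allow. It treats the 7 pairs as independent, although the 2 libraries that behaved as 1 are both among the baselines. Without the 3 libraries that stood apart, these genes kept their direction in 4 of 4 pairs. The exact sign-flip permutation test on those pairs gave p = 0.125 for each gene, the smallest that 4 pairs allow. With all libraries Csf2ra was lower in 6 of 7 pairs (exact sign-flip permutation test, p = 0.0312), and Csf3r was higher in 4 of 7 (exact p = 0.5). Without the 3 libraries Csf2ra was lower in 3 of 4 pairs (exact sign-flip permutation test, p = 0.25). Csf3r was then higher in 2 of 4 (exact sign-flip permutation test, p = 0.5).

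CpG, although it was given for as long as LPS, moved 2 members at an adjusted p below 0.05, Csf3 and Csf3r, where 37.7% of all genes passed (15.1% higher, 22.6% lower). The unstimulated libraries are those that LPS was set against. Csf3 ran from 1.02 through 3.36 to 6.10 TPM with CpG, against 0.517, 0.893 and 1.81 TPM with no stimulus. The groups overlapped through the CpG libraries labelled Bgn-/-, which stood at 1.02 TPM without and 1.22 TPM with biglycan. The rise was 0.93 ± 0.22 on the log2(TPM + 1) scale (limma, adjusted p = 0.00421), with 6 of 7 pairs higher, and it was 0.41 with 5 TPM added (adjusted p = 0.0525).

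Csf3r ran from 129 through 170 to 186 TPM with CpG, against 182, 245 and 345 TPM with no stimulus. All 7 pairs were lower, and the groups touched only where the highest CpG library, labelled Lum-/- without protein, met the wild-type library with lumican alone. The fall was 0.64 ± 0.10 on the log2 scale (limma, adjusted p = 0.000167), and 0.58 ± 0.08 without the 3 libraries that stood apart (adjusted p = 0.000198).

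The other 6 members were not called with CpG. Csf2 was listed at 0 in 1 CpG library and reached 0.695 TPM in another, against at most 0.656 TPM with no stimulus, a difference of 0.24 ± 0.16 (limma, adjusted p = 0.26). Csf1 ran from 5.00 through 7.54 to 13.2 TPM with CpG (difference -0.41 ± 0.24, adjusted p = 0.189), and without the 3 libraries that stood apart the difference was -0.01 ± 0.16 (adjusted p = 0.963). Csf1r ran from 781 through 910 to 984 TPM with CpG (difference -0.23 ± 0.10, adjusted p = 0.0678), and it was called without the 2 libraries that behaved as 1, at -0.34 (adjusted p = 0.0148), and without all 3 that stood apart, at -0.28 (adjusted p = 0.0489). It was also called when 1 library was left out, at -0.28 (adjusted p = 0.0344) without the untreated one labelled Lum-/-, at -0.27 (adjusted p = 0.0447) without the biglycan-alone one labelled Bgn-/- and at -0.30 (adjusted p = 0.0238) without the biglycan and CpG one labelled Bgn-/-. Csf2ra, Csf2rb and Csf2rb2 differed by -0.08, -0.05 and -0.16.

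Set directly against CpG, LPS gave a difference in all 8 members as deposited, where 85.7% of all genes passed (11.6% higher, 74.1% lower). Csf3 was higher with LPS by 7.23 ± 0.22, Csf2 by 7.19 ± 0.16, Csf1 by 1.94 ± 0.24 and Csf3r by 0.71 ± 0.10 on the log2(TPM + 1) scale (limma, adjusted p of at most 5.69e-06 for each). The differences were -2.22 ± 0.10 for Csf1r, -1.39 ± 0.08 for Csf2rb2, -0.81 ± 0.10 for Csf2rb and -0.28 ± 0.09 for Csf2ra as deposited. With the scaling Csf2ra turned to 0.52 ± 0.09 and Csf2rb stood at -0.02 ± 0.09 (adjusted p = 0.844). Csf2ra was not called in its most abundant transcript, at -0.12 (limma, adjusted p = 0.187), or in its coding transcripts, at -0.15 (adjusted p = 0.0839). Nor was it called in the additive fit of genotype and treatment, at -0.25 (adjusted p = 0.11). The Csf1 ranges, 20.2 to 41.6 TPM with LPS and 5.00 to 13.2 TPM with CpG, did not overlap, nor did those of Csf3r, 228 to 285 TPM with LPS and 129 to 186 TPM with CpG. Csf2 and Csf3 also lay wholly higher with LPS, Csf1r, Csf2rb and Csf2rb2 lay wholly lower, and the ranges of Csf2ra overlapped. All LPS libraries lay above all CpG ones in 8.01% of all genes and below them in 62.1%. This comparison shares its LPS libraries with the one against no stimulus.

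The other genes of these pathways were split with LPS, some rising steeply and others falling. Of 30 signalling genes below the receptors, 10 were higher and 17 lower with LPS as deposited (18 and 9 with the scaling), beside 14.1% of all genes higher and 72.3% lower as deposited and 4671 and 4485 of 11773 genes with the scaling. Their median difference was -0.32, against -0.72 for all genes. For the other lists below it was 0.02 (transcription factors), -0.04 (shedding and decay) and -0.44 (related ligands and receptors). Feedback inhibitors of JAK and STAT signalling led the higher ones: Cish by 3.43 ± 0.20, Socs1 by 3.25 ± 0.23 and Socs3 by 3.09 ± 0.12 (limma, adjusted p = 9.57e-11, 1.23e-09 and 1.84e-12). Fgr, a myeloid kinase of the Src family, fell by 3.12 ± 0.11. With CpG 7 of the 30 were higher and 4 lower, beside 15.1% and 22.6% of all genes, and Cish stood at 0.00 ± 0.20 while Socs3 rose by 1.02 ± 0.12 (adjusted p = 1.99e-05).

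Of 15 tested myeloid transcription factors, 4 were higher and 7 lower with LPS (9 and 4 with the scaling), beside 14.1% and 72.3% of all genes. Cebpa, a factor of early myeloid development, had a difference of -3.33 ± 0.10. The difference was -2.04 ± 0.08 for Fli1 and -1.48 ± 0.09 for Egr2, each also lower with the scaling. Spi1, which encodes PU.1, the factor that drives Csf1r in macrophages, fell by 0.83 ± 0.05 as deposited and stood at 0.01 with the scaling (adjusted p = 0.881); it was named after its value was seen.

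Of 12 genes for the shedding of Csf1r and for the decay of AU-rich mRNA, 4 were higher and 6 lower with LPS (7 and 4 with the scaling), beside 14.1% and 72.3% of all genes. Zc3h12a, an endonuclease that cleaves cytokine mRNAs, rose by 2.43 ± 0.08, and Zfp36, the gene of tristetraprolin, rose by 1.20 ± 0.08 (limma, adjusted p = 2.49e-13 and 1.11e-09). Zfp36l2, of the same family, fell by 2.11 ± 0.10, and Adam17, a protease that sheds Csf1r from the cell surface, fell by 1.13 ± 0.06. Among 9 related ligands and receptors only 5 reached a mean of 1 TPM, of which 0 were higher and 3 lower with LPS (2 and 1 with the scaling), beside the same shares of all genes. The differences were -1.45 ± 0.11 for Flt3l, -0.53 ± 0.21 for Il5ra, -0.44 ± 0.12 for Kitl and -0.19 ± 0.15 for Kit (adjusted p = 0.22, not called). With the scaling Il5ra stood at 0.10 and Kitl at 0.28. Il34, the second ligand of Csf1r, and Il3 and Il5, the other ligands of the beta chains, averaged 0.0296, 0.109 and 0.0139 TPM over the 21 libraries.

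**Figure D3:**
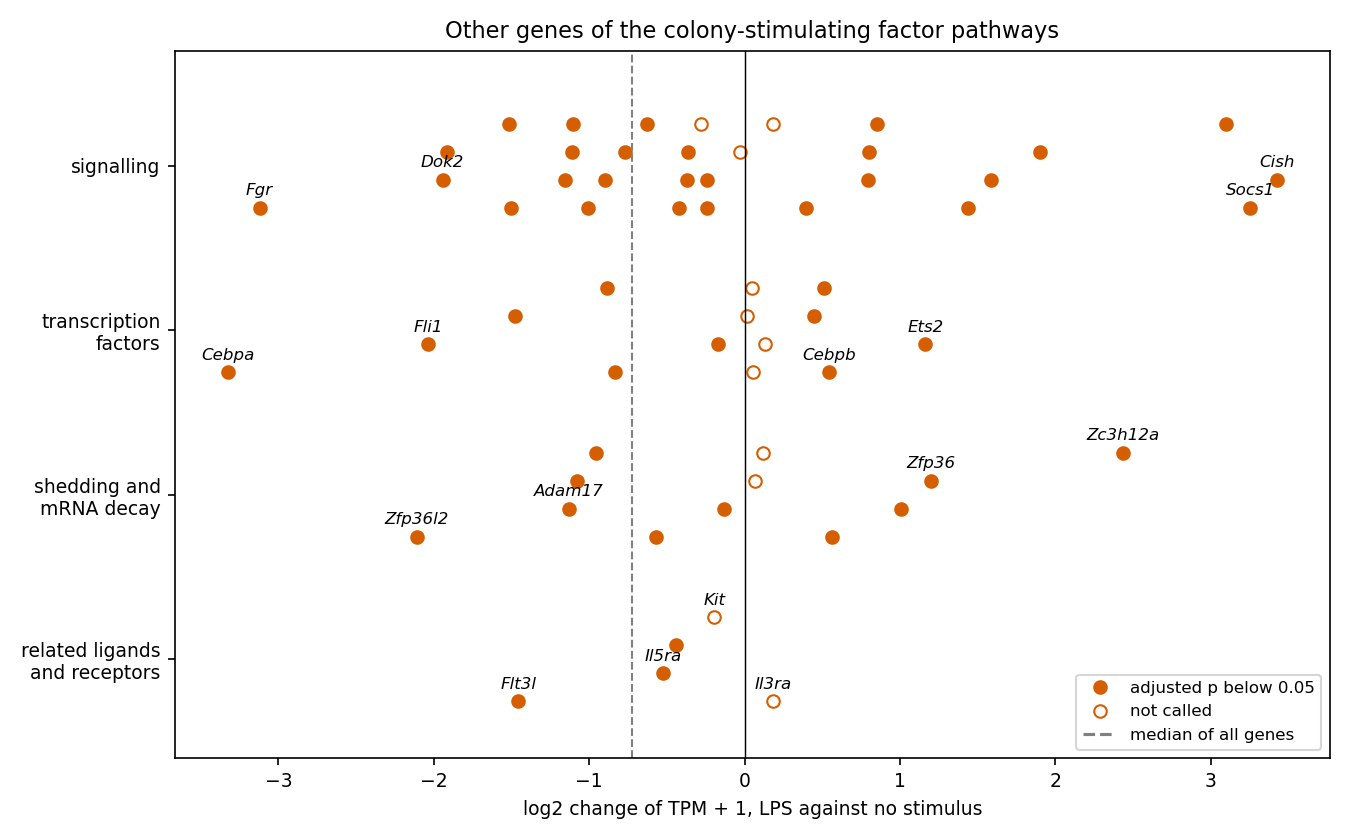
Differences on the log2(TPM + 1) scale between LPS and no stimulus, as deposited, for the genes reported here of 4 lists; filled points have an adjusted p below 0.05, the dashed line is the median of all genes, and the 2 lowest and 2 highest genes drawn for each list are named. The signalling genes run from Fgr at -3.12 to Cish at 3.43.

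Across the 6 treatments that libraries labelled Lum-/- shared with wild type, 0 members were called, where 5.33% of all genes passed and 2504 genes had an unadjusted p below 0.05. The largest differences were 0.49 ± 0.21 for Csf3 (limma, adjusted p = 0.206) and -0.31 ± 0.27 for Csf1 (adjusted p = 0.553). Csf2ra differed by -0.06 as summed, and it was called lower in its most abundant transcript, at -0.33 ± 0.08 (adjusted p = 0.0372), and in its coding transcripts, at -0.32 ± 0.08 (adjusted p = 0.0323). Without the 3 libraries that stood apart Csf1 was lower by 0.69 ± 0.13 (adjusted p = 0.00875) and Csf3r higher by 0.33 ± 0.06 (adjusted p = 0.00668), and Csf3r was called, at 0.31 ± 0.07 (adjusted p = 0.0299), when only the untreated wild-type library was left out. Csf1 was lower in 5 of 6 matched pairs, with ratios of 0.459 to 0.697, and the pair without protein or stimulus went the other way at 2.60, its numerator being 1 of the 2 libraries that behaved as 1.

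For the libraries labelled Bgn-/-, 0 members were called against wild type, where 0.212% of all genes passed and 882 had an unadjusted p below 0.05. Csf3 showed the largest difference, -0.44 ± 0.21 (limma, adjusted p = 0.683). Without the 3 libraries that stood apart it was lower by 0.85 ± 0.17 (adjusted p = 0.031). With a stimulus Csf3 was lower in 4 of 4 pairs: 435 TPM against 544 TPM in wild type with LPS, 358 TPM against 597 TPM with LPS and biglycan, 1.02 TPM against 3.32 TPM with CpG, and 1.22 TPM against 4.42 TPM with CpG and biglycan. With no stimulus it was higher in 2 of 2 pairs, at 0.583 TPM against 0.517 TPM in wild type without protein and 1.81 TPM against 0.734 TPM with biglycan, and the libraries that stood apart are in both pairs.

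Within LPS the libraries labelled Lum-/- lay at one end of the range for each ligand gene. This pattern was noticed in the values, so they are given as a description, with no test. How many of all genes have these libraries at one end of the range was not counted. Csf2 stood at 310 TPM without and 264 TPM with lumican in libraries labelled Lum-/-, at 230 TPM without and 185 TPM with biglycan in those labelled Bgn-/-, and at 157, 134 and 189 TPM in wild-type libraries without protein, with lumican and with biglycan. The libraries labelled Lum-/- were the highest of the 7, and those labelled Bgn-/- overlapped with wild type.

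Csf3 stood at 1156 TPM without and 848 TPM with lumican in libraries labelled Lum-/-, at 435 TPM without and 358 TPM with biglycan in those labelled Bgn-/-, and at 544, 486 and 597 TPM in wild type without protein, with lumican and with biglycan. For this gene alone of the ligands the labels fell in a row without overlap, Lum-/- above wild type and wild type above Bgn-/-. The share of all genes with such a row was not counted, so the row is not given as a trait of Csf3.

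Csf1 went the other way in the libraries labelled Lum-/-, with 20.2 TPM without and 27.0 TPM with lumican, the lowest of the 7 LPS libraries. Those labelled Bgn-/- had 30.8 TPM without and 41.6 TPM with biglycan, and wild-type libraries had 35.2, 39.8 and 36.0 TPM without protein, with lumican and with biglycan. The libraries labelled Bgn-/- enclosed those of wild type. The 7 mast cell markers summed to 10.1 and 7.72 TPM in the LPS libraries labelled Lum-/- and to 2.72 and 4.50 TPM in those labelled Bgn-/-, against 64.7, 76.4 and 77.1 TPM in wild type, and their part in these levels was not tested.

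**Figure D4:**
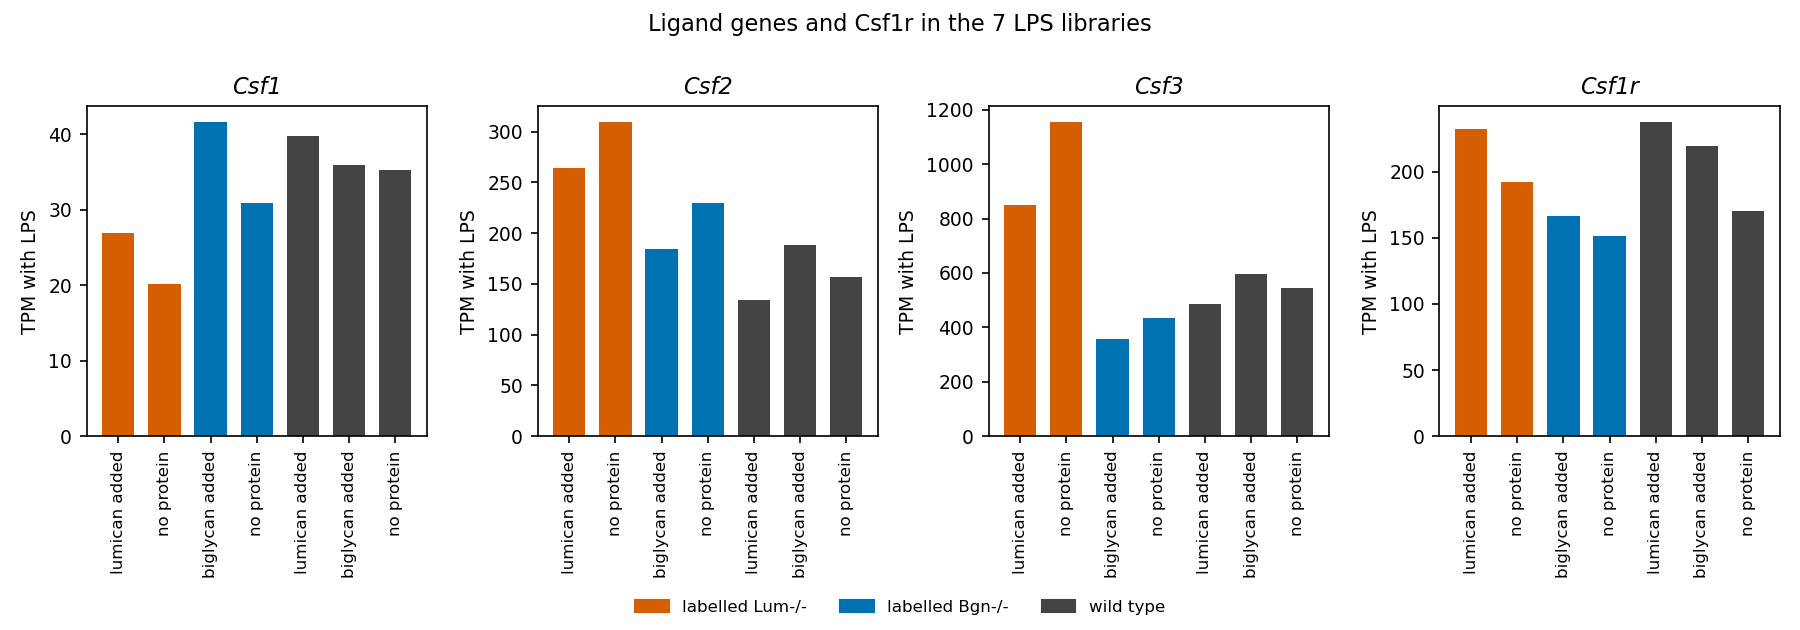
TPM of Csf1, Csf2, Csf3 and Csf1r in each of the 7 LPS libraries, by genotype label (colour) and added protein; each bar is 1 library. The bars labelled Lum-/- are the highest for Csf2 (264 and 310 TPM) and Csf3 (848 and 1156 TPM) and the lowest for Csf1 (20.2 and 27.0 TPM).

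When the response to LPS was compared between genotypes, 0 members and 0% of all genes were called for either label, with 1445 genes at an unadjusted p below 0.05 for the label Lum-/- and 558 for the label Bgn-/-. For Csf2 the response was larger by 1.18 ± 0.28 in the libraries labelled Lum-/- (limma, unadjusted p = 0.00244, adjusted p = 0.279). Without the 2 libraries that behaved as 1, 212 genes were called for the label Bgn-/-, among them Csf3r at 0.81 ± 0.13 (adjusted p = 0.0283) and Csf2rb2 at -0.62 ± 0.10 (adjusted p = 0.0332). The baseline is then the untreated pair alone, whose wild-type library also stood apart, and without all 3 the response of this label could not be fitted. For the response to CpG 0 members and 0% of all genes were called too, with 821 and 626 genes at an unadjusted p below 0.05 for the labels Lum-/- and Bgn-/-. The lowest p was for Csf3 in the libraries labelled Bgn-/-, at -1.42 ± 0.29 (unadjusted p = 0.000764, adjusted p = 0.612), and without the untreated library labelled Bgn-/- it was -1.79 ± 0.30 (adjusted p = 0.0421), with the biglycan-alone library, 1 of the 2 that behaved as 1, as the only baseline of that label. Without those 2, 237 genes were called for the label Bgn-/-, Csf3r among them at 0.90 ± 0.13 (adjusted p = 0.0158). The Csf1 response of the label Lum-/- was -1.04 ± 0.59 with LPS and -1.16 ± 0.59 with CpG (adjusted p = 0.478 and 0.688), and it stood at 0.15 and 0.03 without the untreated library labelled Lum-/-, 1 of the 2 that behaved as 1. Conversely, leaving out the lumican-alone library of either genotype left the pair with that library as the only baseline and gave calls for Csf1 (-2.08 for LPS, -2.19 for CpG) and Csf2ra (0.77 and 0.65), and for Csf1r with CpG (0.70).

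Added lumican or biglycan moved 0 members in any of 6 comparisons. Over all stimuli 0% of all genes were called with lumican and 0% with biglycan, with 1130 and 1037 genes at an unadjusted p below 0.05. With lumican the differences ran from -0.16 ± 0.10 for Csf3r to 0.25 ± 0.16 for Csf3, and with biglycan from -0.07 ± 0.13 for Csf2 to 0.47 ± 0.23 for Csf1 (limma, adjusted p = 0.595). Csf1 was higher with biglycan in 6 of 6 matched pairs, by ratios of 1.02 to 2.70, and the highest of these rests on the biglycan-alone library labelled Bgn-/-.

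With LPS, lumican gave a difference of 0.42 ± 0.16 for Csf1r (limma, adjusted p = 0.269) and of 0.31 ± 0.13 for Csf2rb2 (adjusted p = 0.305), where 0.034% of all genes passed. Csf1r stood at 232 TPM with lumican and 192 TPM without it in the libraries labelled Lum-/-, and at 238 TPM with and 170 TPM without it in wild type. Csf2 and Csf3 stood lower with lumican in both genotypes, by -0.30 ± 0.29 and -0.24 ± 0.36 (adjusted p = 0.712 and 0.823). Biglycan with LPS, lumican with CpG and biglycan with CpG each had 0% of all genes called, with 1340, 218 and 365 at an unadjusted p below 0.05. At 1 library per combination, the standard errors of the 8 members with LPS and lumican ran from 0.13 for Csf2rb2 to 0.45 for Csf1 on the log2 scale.

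The transcripts behind these sums differed between members. Csf2 and Csf3 each had 1 annotated transcript. Csf1-201, the transcript whose 3′ untranslated region is described above, made up 59.3% of Csf1 TPM with LPS, against 43.3% with no stimulus, and its mean was 19.5 TPM with LPS and 5.11 TPM with no stimulus. The unstimulated share includes the 2 libraries that behaved as 1, whose summed Csf1 was the highest at 24.3 and 17.9 TPM. It was not computed without them, so no shift in transcript use is read from it. Csf1-207 averaged 1.01 TPM with LPS and 1.86 TPM with no stimulus. Its ranges overlapped, at 0 to 3.08 TPM with LPS and 0 to 9.59 TPM with no stimulus, so no direction is given. For Csf2ra only 32.8% of the TPM lay in transcripts annotated as protein coding. The coding transcript Csf2ra-201 averaged 167 TPM over the 21 libraries, beside 137 TPM for the retained-intron transcript Csf2ra-205 and 125 TPM for the processed transcript Csf2ra-203. The share in coding transcripts was 80.3% for Csf2rb and 80.6% for Csf3r, and at least 97.4% for the others.

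**Figure D5:**
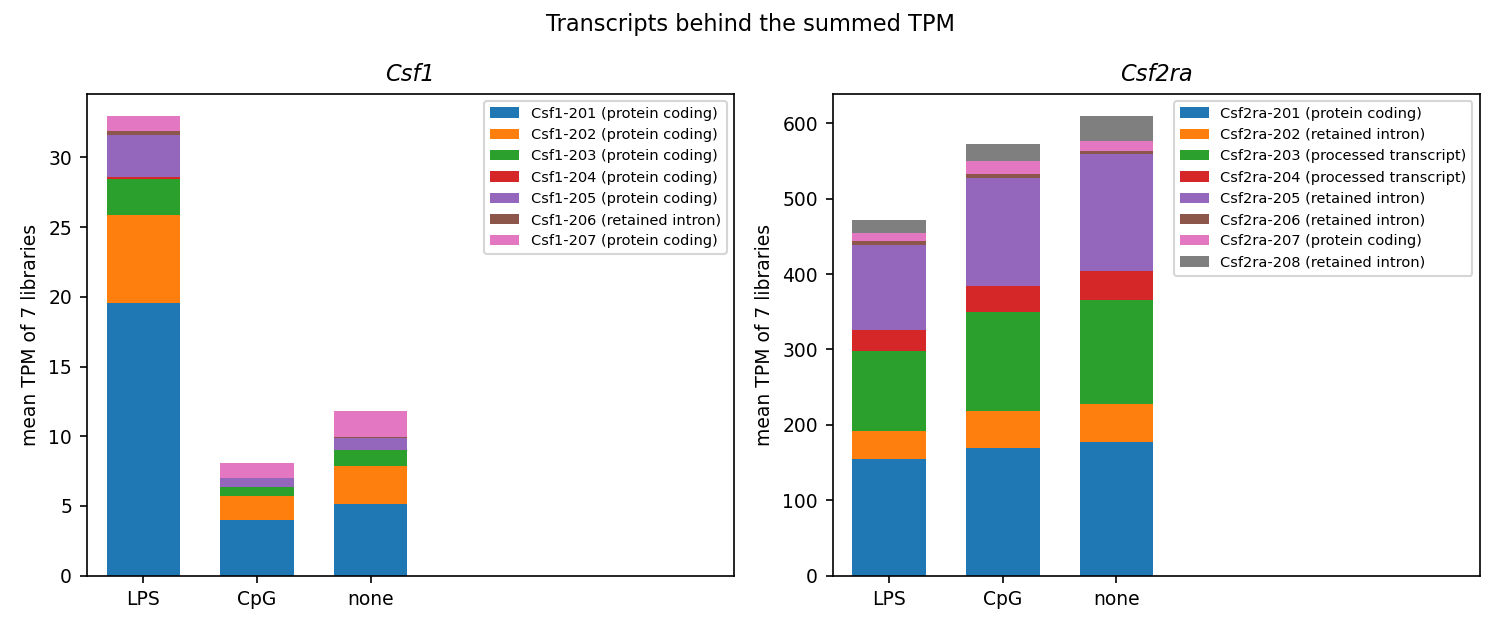
Mean TPM of each annotated transcript of Csf1 and Csf2ra over the 7 libraries of each stimulus, stacked, with the transcript type in the legend. Csf1-201 (19.5 TPM with LPS) makes up most of the Csf1 bar with LPS, and coding transcripts are the smaller share of Csf2ra under each stimulus.

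A window of 250 bases before the RefSeq start (GRCm38.p6) was searched in the 5 members with an entry that could be used, namely Csf1, Csf2, Csf2ra, Csf2rb2 and Csf3r. The NF-kB consensus, searched on both strands, matched in Csf1 and in Csf3r, and in 7.28% of 32536 windows of that length. The Csf1 window is shown because, of the ligand genes searched (Csf1 and Csf2), Csf1 held the match. Capitals mark the match, at -154 to -145 from the start and on the opposite strand.
Csf1, chr3:107760470-107760719, minus strand: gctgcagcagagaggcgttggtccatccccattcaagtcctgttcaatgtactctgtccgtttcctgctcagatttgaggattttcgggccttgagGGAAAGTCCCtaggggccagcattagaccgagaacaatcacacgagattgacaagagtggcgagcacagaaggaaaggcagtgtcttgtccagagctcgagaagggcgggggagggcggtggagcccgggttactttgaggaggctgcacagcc
The match in Csf3r lay at -129 to -120, also on the opposite strand. Its window, chr4:126024409-126024658, does not adjoin the start of Csf3r-201 at chr4:126027292. That transcript made up 64.4% of Csf3r TPM with LPS. The AP-1 motif TGANTCA (in 6.73% of windows) and the PU.1 motif GAGGAAGT (in 2.45%), both searched on both strands, were not in these 5 windows, which says only that these letters are absent there. The RefSeq start of Csf2 used here lies upstream of the GENCODE start, so its window need not hold the promoter used in these cells.

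Genes with the most similar pattern over the 21 libraries were taken by Pearson correlation of log2(TPM + 1), as a description only, since the libraries share the stimulus. For Csf3 they were Ereg (r = 0.998), Areg (0.995) and Ccl4 (0.994), and for Csf2 Schip1 (0.994), Mmp3 (0.994) and Ereg (0.993). For Csf1 they were Syt7 (0.938), Gpr85 (0.931) and Sptlc2 (0.928). The receptor gene Csf1r went with Spsb2 (0.994), Gdpd1 (0.994) and Tmem164 (0.993), and Csf2rb2 with Hmg20b (0.996), Tmem164 (0.993) and Arl11 (0.993). Csf2rb went with Pip5k1c (0.979), Zfp746 (0.977) and Myo9b (0.974), and Csf2ra with Ankdd1a (0.905), Ptgir (0.902) and Jcad (0.898). For Csf3r the nearest were Gab2 (0.836), Maf (0.791) and Nabp1 (0.784), the weakest likeness of the 8.

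The neighbours of the ligand genes showed smaller differences with LPS. Il3, 15636 bases from Csf2 on chromosome 11, was at 0 to 0.332 TPM with LPS, against 0 to 0.213 TPM with no stimulus, while P4ha2 on the other side rose by 1.15 ± 0.10 on the log2 scale (limma, adjusted p = 2.46e-08). Csf3, at chr11:98701263-98703629, lies 962 bases from Med24, which rose by 0.70 ± 0.11 (adjusted p = 1.42e-05), and 5284 bases from Psmd3, which differed by 0.04 ± 0.05 (adjusted p = 0.452). Csf1, at chr3:107741048-107760469, lies 44488 bases from Ahcyl1, which fell by 1.05 ± 0.10 (adjusted p = 3.75e-08). These differences are as deposited, where the median gene stood at -0.72. With the scaling Psmd3 was higher by 0.87 ± 0.04 (limma, adjusted p = 2.76e-11), and P4ha2 and Med24 were also higher. Ahcyl1 stood at -0.23 ± 0.08 with the scaling (limma, adjusted p = 0.0165). Coordinates are GRCm38 in GENCODE vM21, and the difference between each ligand and its neighbours was not tested.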

How the data were processed

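The deposited table held TPM (transcript abundance per length, scaled to 1 sum in every library) for 89562 transcripts in 21 libraries. Tools named in the submitters' processing notes are kallisto 0.44.0 and bcl2fastq 1.8.4, with the build GRCm38, and per the labels the authors prepared libraries with a TruSeq stranded kit. How the authors made the TPM values is otherwise not given in the sources used here, and the table states no read depth. Of the transcripts, 82788 had a gene in the table, 5423 were matched to GENCODE vM21 by ID and 1351 were left out; TPM was summed per gene. The 11773 genes that averaged 1 TPM or more were tested on log2(TPM + 1) with limma 3.58.1 in R 4.3.3 (empirical Bayes with trend, two-sided, Benjamini-Hochberg at 0.05), so fold changes of low genes are understated. With 1 library per combination, stimulus was tested with the 7 settings of genotype and protein as a block, genotype with treatment as a covariate, the responses with a genotype-by-stimulus term, and protein with genotype and stimulus as a block; the spread is that between settings. The TPM of every library have the same sum, so a few genes that rise lower all others, and median-of-ratios scaling was an alternative beside other pseudocounts and filters, 1 transcript per gene and left-out libraries. The fits were tested on simulated data. The members, lists and tests were chosen with earlier results of these data known. Named were the 8 members, 3 genes most like each, the 4 genes of each list with the largest LPS difference, transcripts with a mean of at least 0.5 TPM, and the neighbours of the ligand genes; 1 gene of the transcription factor list is not reported here. Sequences came from GENCODE vM21 transcripts and from RefSeq; Csf3 and Csf2rb had no entry in the RefSeq table used.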

Additional observations from a re-analysis of the deposited data

How the results depend on the processing

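Scaling the libraries to the median ratio turned Csf2ra to 0.49 with LPS against no stimulus and to 0.52 with LPS against CpG; the shift of the median gene, 0.72, is part of that alternative's construction. The counts that moved by over 1.5 times follow, and their cause was not tested. For CpG against no stimulus, 1 member was called with 5 TPM added, and 2262 genes, in place of 4436, in the additive fit of genotype and treatment. For the label Lum-/- against wild type (627 genes, 0 members), 336 genes were called with no filter, 1219 without 2 libraries (the pair that behaved as 1) and 1447 without 3 (also the untreated wild-type one), and 1 member with the most abundant transcript, with coding transcripts (an alternative chosen after seeing the data) and without 2 libraries, and 2 without 3. For the label Bgn-/- (25 genes), 114 genes were called without 2 libraries and 183 without 3, with 1 member. For the LPS response, the label Lum-/- had 2 genes with 5 TPM added and 1 without 3 libraries, and the label Bgn-/- 212 genes and 2 members without 2. For the CpG response, the label Lum-/- had 1 gene without 3 libraries, and the label Bgn-/- 1 gene with the most abundant transcript and 237 genes and 1 member without 2 libraries. Lumican gave 25 genes without 2 libraries and 52 without 3, and biglycan 4 and 10. Lumican with LPS (4 genes) gave 41 with 0.1 TPM added, 1 with 5 TPM added, 22 at a mean of at least 5 TPM, 20 with no filter, 20 with the scaling, 0 with the most abundant transcript, 34 with coding transcripts, 265 without 2 libraries and 336 without 3. Lumican with CpG gave 5 genes with no filter and 1 without 3 libraries, biglycan with LPS 6 with no filter, 1 with the scaling, 20 without 2 libraries and 24 without 3, and biglycan with CpG 4 with no filter.

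Leaving out each library in turn gave 7 to 8 members and 10026 to 10168 genes for LPS against no stimulus, 2 to 3 and 3841 to 4560 for CpG against no stimulus, 8 and 9950 to 10189 for LPS against CpG, 0 to 1 and 219 to 825 for the label Lum-/-, and 0 and 15 to 60 for the label Bgn-/-. For the LPS response it gave 0 to 2 members and 0 to 770 genes for the label Lum-/-, and 0 and 0 to 46 for the label Bgn-/-; for the CpG response, 0 to 3 and 0 to 540, and 0 to 1 and 0 to 108. For the proteins 0 members were called, with 0 to 36 genes for lumican, 0 to 2 for biglycan, 0 to 49 for lumican with LPS and 0 to 1 for each of lumican with CpG, biglycan with LPS and biglycan with CpG. Of the single members' values under the other alternatives, 1000 kept their direction and side of the threshold, 66 that were called in neither fit changed sign, 12 became called, 8 lost the call and 2 called ones turned. No paired analysis was possible because every group has 1 library, so groups share fewer than 2 replicate numbers; this concerns replicate numbers only, since stimuli were compared within matched settings of genotype and protein. The TPM table states no read depth, and the rough estimates from its low values put the pair that behaved as 1 far below the other libraries, so levels of Csf2 and Csf3 near 0 are least precise in that pair.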
